A study of Mus musculus with 6 samples.

Results

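The intracellular fatty acid binding proteins and the acyl-CoA binding protein were followed in mouse liver after a fast. The members were all table entries named Fabp1, Fabp2, Fabp4, Fabp5, Fabp7 or Dbi, 6 genes of 22481 symbols. All 6 passed the filter on low counts and were tested. RNA came from livers of male C57BL/6J mice, an inbred laboratory strain, aged 10 weeks. The fasted group had no food for 16 h and the fed group ate freely, with 3 libraries of ribosome-depleted total RNA in each. Both groups were otherwise untreated as far as the labels say. Whether the 3 libraries of a group stem from 3 mice is not stated in the labels, and p-values then reflect only how far these libraries spread, which may be technical.

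Fatty acid binding proteins are small soluble proteins that hold a long-chain fatty acid or another lipid inside a beta barrel and carry it through the cytosol, and several pass ligands to nuclear receptors. Each is named for the tissue in which it was first found abundant: liver (Fabp1), intestine (Fabp2), adipose tissue (Fabp4), epidermis (Fabp5) and brain (Fabp7). Dbi encodes the acyl-CoA binding protein, also called diazepam binding inhibitor, which is unrelated in fold and holds fatty acids once they are activated to acyl-CoA. In liver, Fabp1 is the abundant form, and a fast brings the hepatocyte a large flow of fatty acids from adipose tissue.

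The members lie on 4 chromosomes of the mouse build GRCm38, as placed by GENCODE M21. Fabp1 (ENSMUSG00000054422) is at chr6:71199827-71205023 on the plus strand. Fabp5 (ENSMUSG00000027533) is at chr3:10012548-10016607 on the plus strand, and Fabp4 (ENSMUSG00000062515) is near it at chr3:10204088-10208576 on the minus strand. Fabp2 (ENSMUSG00000023057) is on the same chromosome at chr3:122895072-122899506 on the plus strand. Fabp7 (ENSMUSG00000019874) is at chr10:57784881-57788450 on the plus strand and Dbi (ENSMUSG00000026385) at chr1:120113280-120121078 on the minus strand. The longest coding transcripts are short, from 553 bases for Fabp1 and 569 bases for Dbi to 987 bases for Fabp5. Fabp2 overlaps 1 annotated gene on the opposite strand, and Fabp5 has 2 annotated pseudogenes that match its transcript over at least 200 bases at 95% identity or more. The kit marks the strand, but the labels do not state whether the counting used it or how shared reads were assigned. Below 95% identity there are further matches, among them a pseudogene that matches Dbi at 93.9% over 261 bases. The counts of Fabp2, Fabp5 and Dbi are uncertain to that extent.

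Promoter windows are shown for Fabp1, the most abundant member, and for Fabp2 and Fabp7, so that a match in Fabp1 to DR1, a motif of nuclear receptors, can be read against members without one. No window was matched for Fabp4 and Fabp5. Each window is RefSeq sequence on GRCm38.p6, written 5′ to 3′ on the strand of the gene, from 250 bases before the RefSeq start to 50 bases after it. Capitals mark the motif TGACCT on either strand, the core motif of many nuclear receptors, and a match with at most 1 mismatch to DR1, a direct repeat of that core with a single base between the copies, which pairs of PPAR and RXR receptors bind.
Fabp1, chr6:71199629-71199928, plus strand: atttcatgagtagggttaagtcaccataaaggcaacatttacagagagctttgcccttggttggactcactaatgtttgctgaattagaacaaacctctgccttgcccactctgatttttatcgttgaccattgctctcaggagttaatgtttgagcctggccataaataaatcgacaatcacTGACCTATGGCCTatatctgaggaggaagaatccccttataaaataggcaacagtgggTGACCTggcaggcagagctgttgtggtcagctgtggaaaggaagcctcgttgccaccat
Fabp2, chr3:122894822-122895121, plus strand: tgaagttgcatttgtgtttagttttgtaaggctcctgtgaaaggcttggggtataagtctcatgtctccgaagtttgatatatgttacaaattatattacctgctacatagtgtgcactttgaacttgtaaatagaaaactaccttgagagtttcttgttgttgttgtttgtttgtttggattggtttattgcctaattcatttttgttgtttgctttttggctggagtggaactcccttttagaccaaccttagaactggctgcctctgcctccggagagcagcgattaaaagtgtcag
Fabp7, chr10:57784673-57784972, plus strand: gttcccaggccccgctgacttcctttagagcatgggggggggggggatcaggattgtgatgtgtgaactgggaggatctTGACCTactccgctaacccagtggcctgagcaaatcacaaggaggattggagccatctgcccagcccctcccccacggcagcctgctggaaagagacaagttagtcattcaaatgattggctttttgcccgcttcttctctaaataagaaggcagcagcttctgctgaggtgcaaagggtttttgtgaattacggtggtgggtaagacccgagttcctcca

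The Fabp1 window held 2 core motifs. With its neighbouring bases 1 of them reads TGACCTATGGCCT, which matched DR1 on the opposite strand with 1 mismatch and so overlaps that core motif. It lies at chr6:71199812-71199824, with its first base at position -67 from the RefSeq start, which lies downstream of the GENCODE M21 start given above. Such a match with at most 1 mismatch was present in 0.554% of 32851 promoter windows, and a core motif in 16.3%. Fabp7 had 1 core motif and Fabp2 none, and the best DR1 match of each had 3 mismatches, a level reached by 24.6% of all windows. An E-box, CACGTG, and the sterol element TCACNCCAC were searched on both strands as well. Neither was found in the 3 windows shown, against 7.15% and 1.24% of all windows. A match describes letters only and is not a bound site.

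Spread between libraries was wider in the fed group, and this touches several members. Counts over all genes summed to between 11158017 and 11639399 in the fasted libraries and between 12289666 and 14771845 in the fed libraries, so that 3 counts corresponded to between 0.186 and 0.291 CPM (a count relative to the TMM-scaled library total). Among 11393 genes with a mean of at least 1 CPM, the median gap between the highest and the lowest library was 0.41 on the log2 scale in fasted livers and 0.52 in fed livers. For 20 acute phase genes, which encode plasma proteins of inflammation, the mean on the log2 CPM scale was 11.4, 11.5 and 10.6 in fasted libraries 1, 2 and 3, and 9.18, 11.8 and 12.8 in fed libraries 1, 2 and 3. The 12 hepatocyte markers had means on the log2 CPM scale of 12.41 to 12.44 in fasted livers and 10.83 to 11.95 in fed livers, which did not overlap. Among them edgeR called none, 4 had an unadjusted p under 0.05 and DESeq2 called 4, and their part in the members' values was not tested. All of them but Alb, the albumin gene, were abundant in all libraries. Alb was listed at 0 in fed library 2 while the other fed libraries held 396733 and 714561 counts, so that 0 may be a failed estimate. The lowest mean, 10.83, is that of fed library 2 and includes this 0.

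Fabp5 fell in fasted livers, the largest change among the members and the only one that passed the test. Dbi was lower in fasted livers and Fabp2 higher in the mean, neither past the threshold. Fabp1, Fabp2, Fabp4 and Fabp7 had groups that overlapped. In edgeR's quasi-likelihood test at an adjusted p under 0.05, 1 of the 6 members was called, where 2.52% of 11633 tested genes were called, 1.41% higher and 1.11% lower. The fasted and fed libraries did not overlap for 2 of the 6 members, Fabp5 and Dbi. That share, 33.3%, is near the 29% found over all tested genes. An unadjusted p under 0.05 was reached by 3 members, Fabp5, Dbi and Fabp2, and by 21.8% of all genes. Calls varied with the libraries kept: without fasted libraries 1, 2 and 3 edgeR called 0.276%, 0.0252% and 0.251% of genes, and without fed libraries 1, 2 and 3 it called 4.22%, 0.111% and 6.35%. With a block for the replicate number it called 0.249%, and limma on unfiltered FPKM called 0.255%. The members' median log2 fold change was -0.82, against -0.02 over all tested genes.

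**Figure D1:**
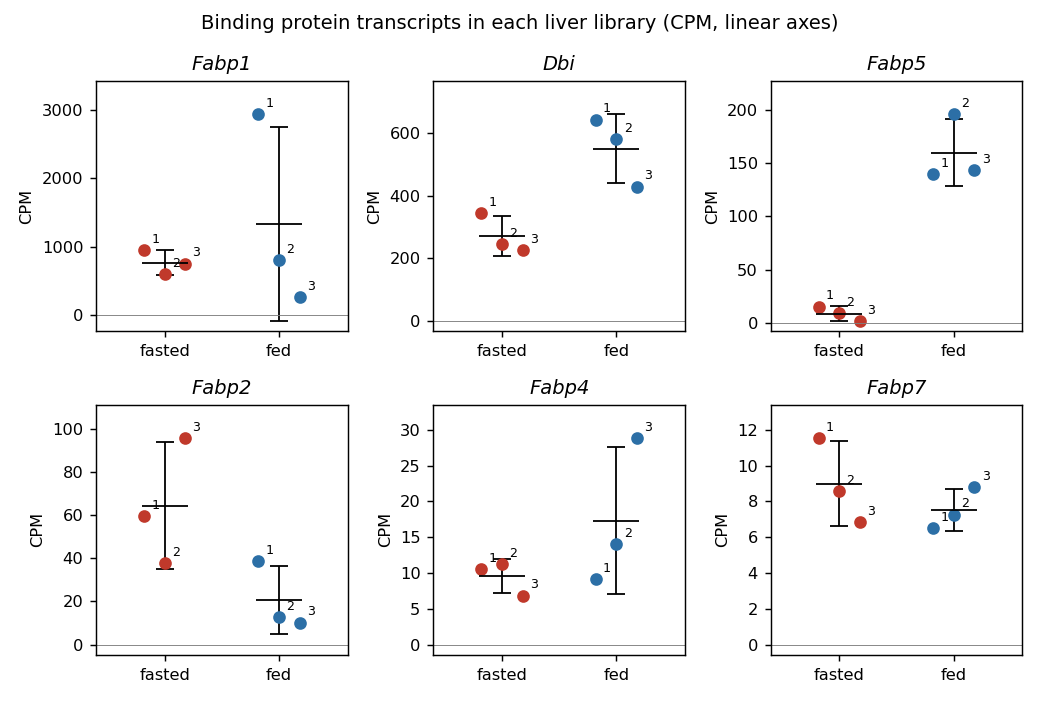
CPM of each member in every library on linear axes that include 0; points are libraries with their numbers, and bars give the mean and SD of 3 libraries. Fabp5 and Dbi have fasted libraries that all lie below the fed ones, while Fabp1 ranges from 256 to 2936 CPM within the fed group.

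Fabp1, the liver form that binds fatty acids, acyl-CoAs, heme and bile acids, was the most abundant member in 5 of 6 libraries. Its level was 950, 599 and 752 CPM in fasted libraries 1, 2 and 3, and 2936, 800 and 256 CPM in fed libraries 1, 2 and 3. The 3 fasted libraries lay inside the range of the fed ones. The fed libraries differed among themselves by 11.5-fold, and the fasted libraries by 1.59-fold. A gap at least as wide as that between the fed libraries was seen in 1.65% of the 11393 genes.

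For Fabp1 the fitted log2 fold change of -0.79, with an SE of 0.76, did not pass (edgeR adjusted p = 0.581). The sign rests on fed library 1, without which the log2 fold change was 0.52 (adjusted p = 0.534). Within the fed group Fabp1 was highest in library 1 and lowest in library 3, where the acute phase list was lowest and highest. The fasted group showed this only in part. Fabp1 was lowest in fasted library 2, where that list was highest, but Fabp1 was highest in fasted library 1 and the list lowest in fasted library 3. The part of the acute phase genes in the spread of Fabp1 was not tested. In bulk tissue, fewer cells of a type and less RNA per cell cannot be told apart.

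Fabp5 is the epidermal form, which binds long-chain fatty acids and is known to deliver ligands to the nuclear receptor PPAR delta. It stood at 15.4, 9.51 and 2.16 CPM in fasted libraries 1, 2 and 3, against 140, 196 and 143 CPM in fed libraries 1, 2 and 3. Every fasted library lay below every fed library. The lowest fed library held 9.06 times the CPM of the highest fasted library. The mean was 9.04 ± 6.65 CPM in fasted livers and 160 ± 31.4 CPM in fed livers (SD, n = 3 each), 17.7-fold lower after the fast (log2 fold change -4.15, SE 0.62, edgeR adjusted p = 0.0246).

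In contrast to Fabp1, Fabp5 varied most within the fasted group. Its fasted libraries spread over 7.14-fold, a gap reached by 1.01% of genes, and its fed libraries over 1.40-fold. The counts behind these values were 159, 104 and 25 in fasted libraries 1, 2 and 3, and 1984, 3153 and 1709 in fed libraries 1, 2 and 3. The log2 fold change stayed between -4.77 and -3.70 when 1 library was left out. The call was lost without fasted library 1, fasted library 2 or fed library 2 (edgeR adjusted p = 0.065, 0.148 and 0.106), and was kept without fasted library 3, fed library 1 or fed library 3 (0.0221, 0.0196 and 0.0145).

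Fabp5 is also expressed by macrophages, so macrophage markers are given beside it. The summed level of 12 Kupffer cell and macrophage markers was 786, 946 and 662 CPM in fasted libraries 1, 2 and 3, and 919, 893 and 695 CPM in fed libraries 1, 2 and 3. These ranges overlapped and edgeR called none of the 12 markers (2 at an unadjusted p under 0.05, and 0 by DESeq2). Fabp5 came to between 0.327% and 1.97% of that sum in fasted livers and to between 15.2% and 21.9% in fed livers. The part of macrophages in the Fabp5 level was not tested. Markers of keratinocytes, the cells in which Fabp5 was first found abundant, were close to absent, with sums of 0.823 to 2.08 CPM in fasted livers and 1.18 to 1.31 CPM in fed livers and with Krt5 and Krt1 at 0 in all libraries.

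Dbi, which buffers acyl-CoA and supplies it to enzymes, was the second most abundant member. Its level was 344, 245 and 225 CPM in fasted libraries 1, 2 and 3, against 642, 579 and 429 CPM in fed libraries 1, 2 and 3. All fasted libraries lay below all fed libraries. The mean was 272 ± 63.8 CPM in fasted livers and 550 ± 110 CPM in fed livers (SD, n = 3 each), 2.03-fold lower (log2 fold change -1.02, SE 0.25), with an unadjusted p of 0.00413 and an adjusted p of 0.081 in edgeR, which did not pass. It passed without fed library 3 (log2 fold change -1.17, edgeR adjusted p = 0.0306) and with DESeq2 (0.00162), where 6.75% of genes were called.

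The deposited counts can also be set against the deposited FPKM. The ratio of these values depends on the transcript length that was used for a gene. For Dbi it was 5.16, 5.29 and 5.27 counts per FPKM in fasted libraries 1, 2 and 3, against 5.50, 5.42 and 5.35 in fed libraries 1, 2 and 3. The fasted libraries all lay below the fed ones, by 3.36% in the mean, a separation seen in 8.15% of 11360 genes. Its range over the 6 libraries was 6.51%, close to the median of 6.44% over those genes, and 49.8% of them had a range at least as wide. For Fabp1, Fabp2, Fabp4, Fabp5 and Fabp7 the ratio overlapped between the groups. GENCODE M21 lists 3 coding transcripts of Dbi, of 569, 504 and 491 bases, and whether their mix differed was not tested.

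Fabp2, the intestinal form, binds a single long-chain fatty acid and serves fat absorption in the gut. Its level was 59.5, 37.9 and 95.7 CPM in fasted libraries 1, 2 and 3, and 38.8, 12.8 and 10.2 CPM in fed libraries 1, 2 and 3. The groups overlapped through fed library 1, which lay just above fasted library 2. The fitted level was 3.12-fold higher in fasted livers (log2 fold change 1.64, SE 0.55, edgeR adjusted p = 0.152) and did not pass. Without fed library 1 it passed, at a log2 fold change of 2.46 (adjusted p = 0.0243), and with DESeq2 it passed on all libraries (adjusted p = 0.0281).

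Enterocyte markers are given beside Fabp2, which is abundant in that cell type. Of 12 such markers, Cdx1, Cdx2, Sis, Lct, Alpi and Krt20 were at 0 in all libraries, and Vil1 was at 0 in 5 of 6 libraries. The summed level of the list was 529, 418 and 749 CPM in fasted libraries 1, 2 and 3, and 148, 211 and 321 CPM in fed libraries 1, 2 and 3. Nearly all of it was Apoa4, an apolipoprotein that liver also makes, at 321 to 661 CPM in fasted livers and 74.9 to 205 CPM in fed livers, and Anpep, at 84.1 to 96.1 CPM in fasted livers and 72.4 to 115 CPM in fed livers. All fasted sums lay above all fed sums. Of 2 such markers tested, edgeR called none, 1 had an unadjusted p under 0.05 and DESeq2 called 1. The part of gut tissue in the Fabp2 level was not tested beyond these values.

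Fabp4, known as aP2 and abundant in adipocytes, capillary endothelium and macrophages, was scarce. Its level was 10.6, 11.2 and 6.84 CPM in fasted libraries 1, 2 and 3, and 9.10, 13.98 and 28.9 CPM in fed libraries 1, 2 and 3. The groups overlapped, since fed library 1 lay below fasted libraries 1 and 2. The difference did not pass (log2 fold change -0.85, SE 0.42, edgeR adjusted p = 0.293) and rests largely on fed library 3, without which the log2 fold change was -0.27 (adjusted p = 0.605).

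Beside Fabp4, the 11 adipocyte markers summed to 26.8, 23.3 and 26.9 CPM in fasted libraries 1, 2 and 3, and to 20.53, 20.4 and 7.98 CPM in fed libraries 1, 2 and 3. All fasted sums lay above all fed sums, while Fabp4 was highest in fed library 3, where the sum was lowest. Of 4 such markers tested, edgeR called none, 3 had an unadjusted p under 0.05 and DESeq2 called 2. The highest log2 fold changes were 2.87 for Cidec, 1.35 for Pparg and 1.16 for Adrb3 (edgeR adjusted p = 0.062, 0.094 and 0.169). The part of adipocytes in the Fabp4 level was not tested. Plin1 and Lep were at 0 in all libraries and Adipoq did not exceed 0.173 CPM in fasted livers or 0.808 CPM in fed livers. Cfd and Retn went the other way from the sums. Both were at 0 in all fasted libraries, and in fed libraries 1, 2 and 3 Cfd was at 0.212, 2.42 and 0 CPM and Retn at 0.0705, 0.186 and 0 CPM. Adipoq, Cfd and Retn were thus highest in fed library 2. The 12 endothelial markers summed to between 311 and 394 CPM in fasted livers and between 328 and 429 CPM in fed livers, overlapping ranges in which edgeR called no marker (3 at an unadjusted p under 0.05, and 0 by DESeq2). Relative to that sum, Fabp4 was at 3.41%, 2.86% and 1.86% in fasted libraries 1, 2 and 3, and at 2.78%, 3.83% and 6.74% in fed libraries 1, 2 and 3. Fed library 3 stood out here as it did in the CPM.

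Fabp7, the brain form, known from radial glia, differed least. Its level was 11.6, 8.60 and 6.84 CPM in fasted libraries 1, 2 and 3, and 6.49, 7.27 and 8.82 CPM in fed libraries 1, 2 and 3. The groups overlapped throughout (log2 fold change 0.26, SE 0.25, edgeR adjusted p = 0.579). Leaving out any 1 library gave log2 fold changes between 0.04 and 0.40. Glial markers were near 0, with sums of 1.17 to 3.84 CPM in fasted livers and 2.01 to 2.67 CPM in fed livers and with Sox10 at 0 in all libraries.

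**Figure D2:**
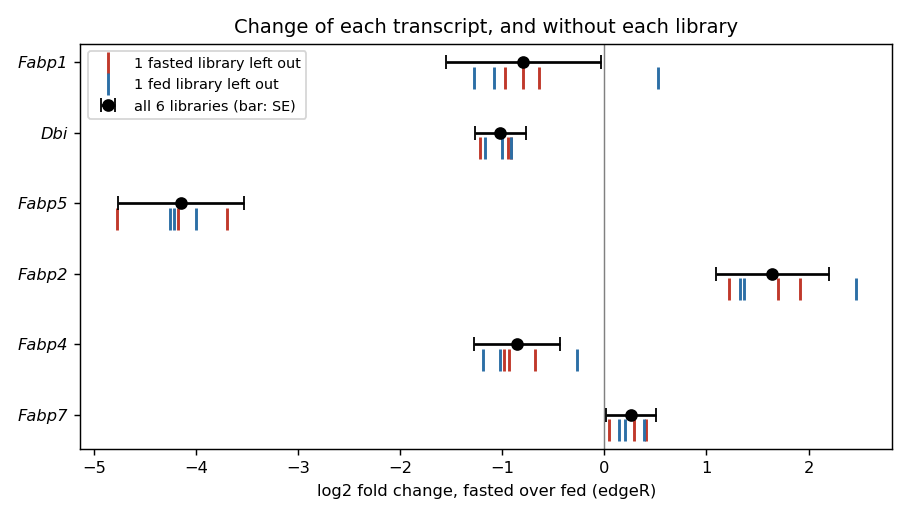
Fitted log2 fold change of each member, fasted over fed, with its SE (black), and the same with each fasted (red) or fed (blue) library left out. Fabp5 stays between -4.77 and -3.70, whereas Fabp1 lies at 0.52 without fed library 1.

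The deposited FPKM, which are per length, allow levels to be set between genes. In fasted livers Fabp1 averaged 1759 ± 364 FPKM and Dbi 645 ± 142 FPKM (SD, n = 3 each), followed by Fabp2 at 71.3 ± 34.5 FPKM. Fabp4 at 17.9 ± 4.11 FPKM, Fabp7 at 12.3 ± 2.83 FPKM and Fabp5 at 9.37 ± 6.73 FPKM came last, and the ranges of neighbours in that order overlapped. In fed livers Fabp1 averaged 3382 ± 3717 FPKM and Dbi 1357 ± 349 FPKM, with overlapping ranges. Fabp5 took the third place at 180 ± 40.1 FPKM, above every fed value of Fabp4 (33.5 ± 17.4 FPKM), Fabp2 (24.7 ± 20.4 FPKM) and Fabp7 (10.9 ± 0.869 FPKM).

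So by FPKM Fabp5 held the third place in all 3 fed libraries and the fifth or last place in the fasted ones. Fabp2 held the third place in all 3 fasted libraries. Dbi exceeded Fabp1 in 1 library, fed library 3, at 972 FPKM against 574 FPKM. Among all 22481 symbols Fabp1 ranked 41, 71 and 56 by FPKM in fasted libraries 1, 2 and 3, and 11, 41 and 102 in fed libraries 1, 2 and 3. Fabp5 ranked 2847, 3997 and 8074 in fasted libraries 1, 2 and 3, and 453, 294 and 354 in fed libraries 1, 2 and 3.

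The FPKM of the 6 members together were 3032, 2038 and 2474 in fasted libraries 1, 2 and 3, and 9496, 3697 and 1770 in fed libraries 1, 2 and 3. Their sum followed Fabp1, with overlapping groups. Fabp1 made up 67.8% to 72.1% of the sum in fasted libraries and 32.4% to 80.0% in fed libraries. Fabp5 made up 0.0969% to 0.522% of the sum in fasted libraries and 1.76% to 8.36% in fed libraries, and Fabp2 2.03% to 4.41% in fasted libraries and 0.411% to 0.614% in fed libraries. The shares of Fabp5 and Fabp2 did not overlap between the groups, and for Fabp2 this held although its level did overlap. A share depends on the other members as well, mainly on Fabp1. In fed library 1 Fabp2 was at 48.2 FPKM, above fasted library 2 at 41.4 FPKM. Its share there was 0.508%, with Fabp1 at 7596 FPKM, so the separation is no sign of a clearer change of Fabp2. The shares are given as a description, with no test.

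**Figure D3:**
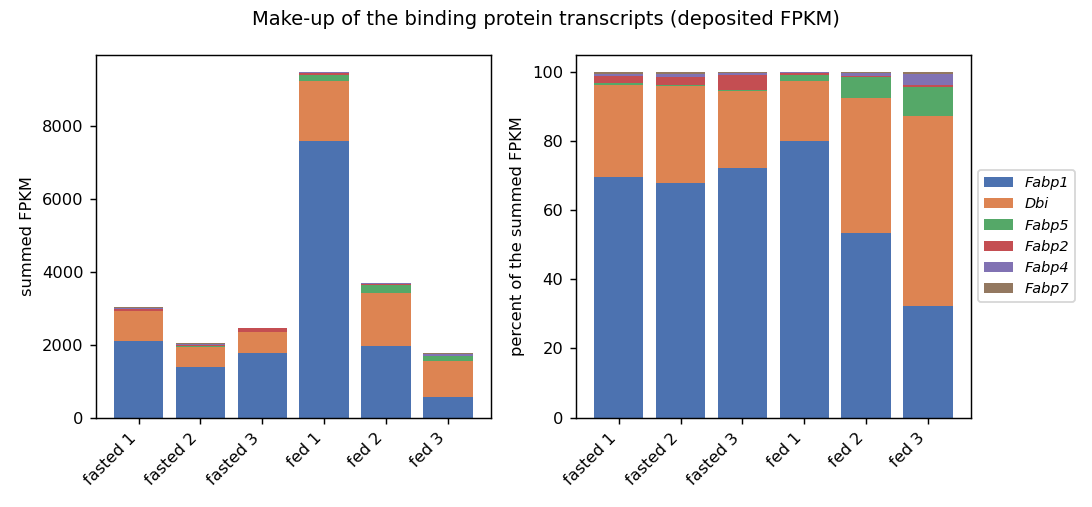
Summed FPKM of the 6 members in each library (left) and the percent that each member contributes (right). Fabp1 gives 67.8% to 72.1% in fasted libraries and 32.4% to 80.0% in fed libraries.

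Genes with the most alike pattern over the 6 libraries were found by the root mean square difference of log2 CPM, each gene centred on its own mean, among 7046 genes. For Fabp5 these included Sqle, squalene epoxidase, at 0.38 and Idi1, isopentenyl diphosphate isomerase, at 0.48, against a median of 2.44 over all genes compared. Sqle was at 17.8, 14.4 and 1.82 CPM in fasted libraries 1, 2 and 3, and at 116, 165 and 219 CPM in fed libraries 1, 2 and 3. Since likeness over these libraries chose such genes, their values are a description.

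For Fabp1 the most alike were Alas2 at 0.28, Akr1c6 at 0.29 and the mitochondrially encoded mt-Co2 at 0.30, against a median of 1.06. The last of these had 438, 327 and 438 CPM in fasted libraries 1, 2 and 3, and 1269, 336 and 78.8 CPM in fed libraries 1, 2 and 3, the same order of fed libraries as Fabp1. For Fabp2 they were Cyp2c37, Oat and Hykk at 0.29, 0.30 and 0.32. For Fabp4 they were Cobl, Nid1 and Nrp2 at 0.14, 0.15 and 0.16, and for Dbi Slc39a4, AI661453 and Paqr9 at 0.10, 0.11 and 0.13. Fabp7 changed little, so its nearest genes, Pcid2, Dennd1a and Mknk1, lay at 0.05 to 0.08 against a median of 0.37.

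**Figure D4:**
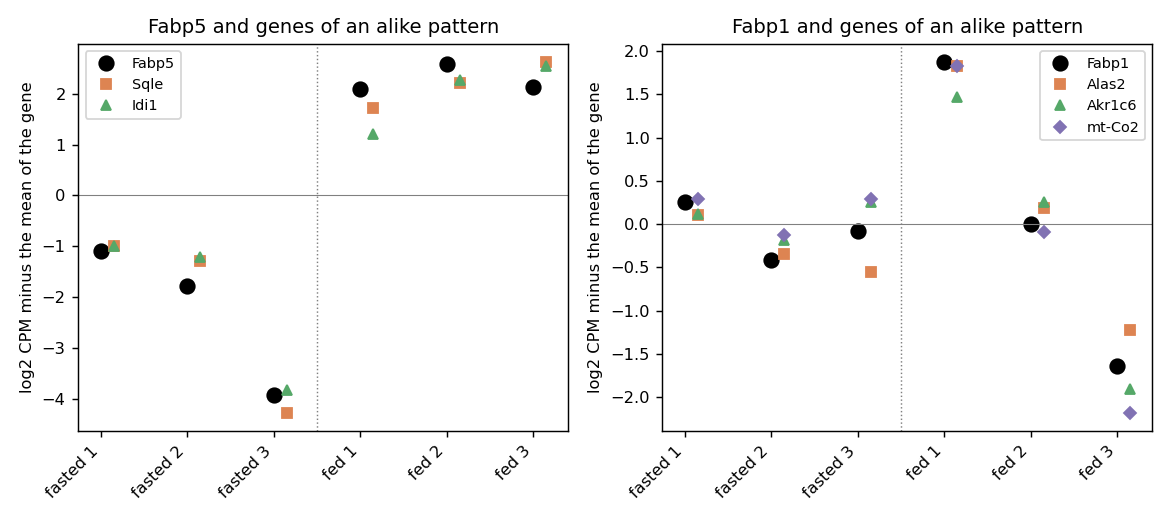
Log2 CPM minus the mean of the gene in each library, for Fabp5 (left) with Sqle and Idi1, and Fabp1 (right) with Alas2, Akr1c6 and mt-Co2. Fabp5 and its neighbours are lowest in fasted library 3; Fabp1 and its neighbours are highest in fed library 1 and lowest in fed library 3.

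Fabp12 and Fabp3, which belong to the same family, were close to absent. Fabp12 had 0 counts in each fasted library and 4, 5 and 4 counts in fed libraries 1, 2 and 3, too few to be tested. Fabp3, the heart form, had 2 counts in all, both in fasted library 1.

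Dbi is 1 of several genes with an acyl-CoA binding domain. Of 5 others tested, 1 rose and none fell, with a median log2 fold change of 0.24. The one was Eci2, a peroxisomal enoyl-CoA isomerase that carries such a domain, at 203 ± 8.13 CPM in fasted livers and 86.9 ± 20.3 CPM in fed livers (SD, n = 3 each; edgeR adjusted p = 0.0342). Leaving out fed library 2, or a fasted library, ended that call, and so did the replicate block and limma on FPKM with or without a filter. Acbd5, which tethers peroxisomes to the endoplasmic reticulum, was at 179, 242 and 265 CPM in fasted libraries 1, 2 and 3 and at 202, 138 and 79.3 CPM in fed libraries 1, 2 and 3, with overlapping groups (edgeR adjusted p = 0.277). Of 7 other lipid carriers none was called by edgeR (1 at an unadjusted p under 0.05 and 1 by DESeq2), among them Scp2, the sterol carrier, at 3266 ± 187 CPM in fasted livers and 3014 ± 1587 CPM in fed livers, and Stard10.

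Genes that bring fatty acids into the cell and activate them to acyl-CoA, the ligand of Dbi, went both ways. Of 16 tested, 1 rose and 1 fell, with a median log2 fold change of 0.06. Slc27a1, a fatty acid transport protein, rose to 8.21 ± 3.22 CPM in fasted livers, against 1.93 ± 0.333 CPM in fed livers (edgeR adjusted p = 0.0328). Acsl3, an acyl-CoA synthetase of the endoplasmic reticulum and lipid droplets, fell to 10.6 ± 3.24 CPM in fasted livers, against 38.9 ± 7.91 CPM in fed livers (adjusted p = 0.0209). With DESeq2 4 rose and 1 fell. Both edgeR calls were lost with the replicate block, and limma on FPKM kept only the fall. Both were also lost when fed library 2 or a fasted library was left out, while 3 rose and 1 fell without fed library 1 and 2 rose and 4 fell without fed library 3. In fatty acid esterification, 1 of 13 rose, Agpat3, and 1 fell, Acat2, an acetyl-CoA thiolase of early sterol synthesis that does not itself esterify fatty acids. With DESeq2 7 rose and 1 fell. In edgeR without fed library 3 the counts were 4 and 2, without fed library 1 they were 2 and 1, without fasted library 1 they were 0 and 1, and without fasted library 2, fasted library 3 or fed library 2 both numbered 0.

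The change of Fabp5 was set beside lists of targets of the lipid regulators PPAR alpha and SREBP. Fabp5 is in neither list, and the part of these regulators in its change was not tested. Of 34 tested PPARA targets 10 rose and none fell, with a median log2 fold change of 1.20. Cyp4a14, Cyp4a31 and Cyp4a32, fatty acid hydroxylases whose similar sequences make their counts uncertain, had the lowest adjusted p, with Cyp4a14 at 4292 ± 796 CPM in fasted livers and 8.17 ± 0.825 CPM in fed livers (SD, n = 3 each). With DESeq2 24 rose, with the replicate block 5 and with limma on unfiltered FPKM 4. Rises numbered 5, 3 and 4 when fasted libraries 1, 2 and 3 were left out in turn, and 18, 3 and 18 when fed libraries 1, 2 and 3 were. Fabp1, itself a known target of PPAR alpha, is not in this list.

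In fatty acid and cholesterol synthesis, 19 of 32 tested genes fell and none rose, with a median log2 fold change of -2.36. Dhcr7, the reductase of the last step of cholesterol synthesis, was at 20.4 ± 1.37 CPM in fasted livers and 113 ± 21.1 CPM in fed livers (SD, n = 3 each; edgeR adjusted p = 0.00452). Lss, another enzyme of that pathway, fell 5.16-fold (edgeR adjusted p = 0.00901). With DESeq2 28 fell, with the replicate block 9 and with limma on unfiltered FPKM 8. Falls numbered 6, 0 and 11 when fasted libraries 1, 2 and 3 were left out in turn, and 19, 5 and 28 when fed libraries 1, 2 and 3 were. Fabp5 at -4.15 lay below the lowest tested gene of this list, Sqle at -3.88, and Dbi at -1.02 lay above the list's median.

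Receptors and regulators that take up ligands from these proteins or drive their genes were counted last. Of 14 tested none was called by edgeR, 5 had an unadjusted p under 0.05 and 4 were called by DESeq2. Their median log2 fold change was 0.24. In edgeR 1 fell without fed library 1 and 1 without fed library 3, where 4.22% and 6.35% of all genes were called. The groups did not overlap for 6 of the 14, against 29% of all tested genes. Hnf4a, a hepatocyte regulator, was at 885 ± 32.8 CPM in fasted livers and 575 ± 75.7 CPM in fed livers, groups that did not overlap (edgeR adjusted p = 0.128). Rxra, the partner of the PPAR receptors, was at 434 ± 29.3 CPM in fasted livers and 364 ± 15.6 CPM in fed livers (edgeR adjusted p = 0.412). Its groups did not overlap either. Ppard, the receptor that Fabp5 serves, was at 6.61, 7.13 and 5.54 CPM in fasted libraries 1, 2 and 3, and at 6.35, 13.98 and 13.5 CPM in fed libraries 1, 2 and 3, with overlapping groups (adjusted p = 0.196). Ppara, to which Fabp1 is known to carry ligands, was at 43.7 to 94.3 CPM in fasted livers and 31.1 to 66.7 CPM in fed livers (adjusted p = 0.683).

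**Figure D5:**
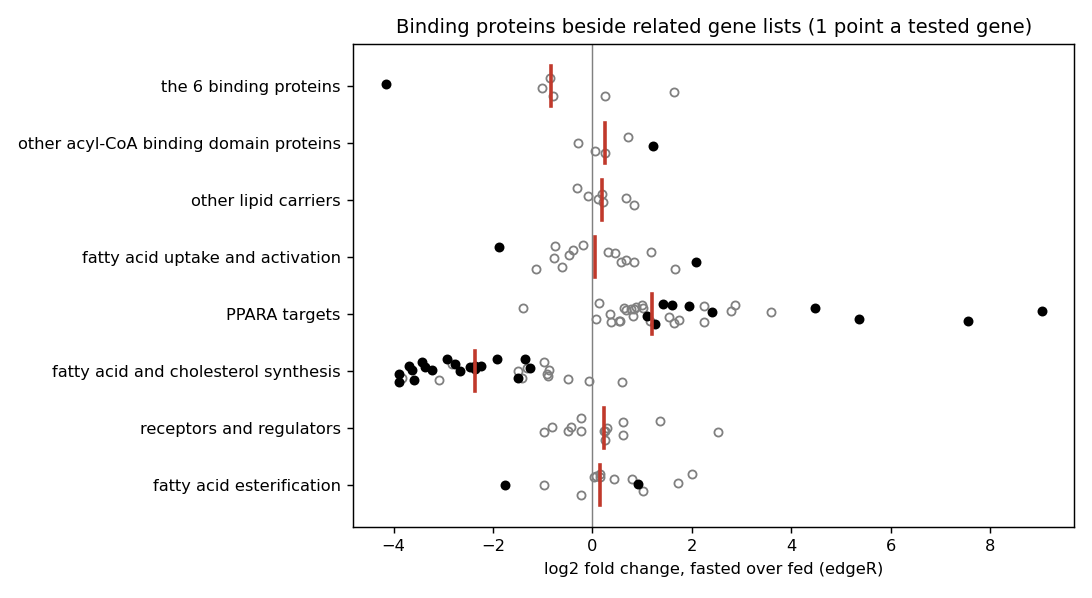
Log2 fold change, fasted over fed, of each tested gene in the members and in 7 related lists; filled points passed at an adjusted p under 0.05 in edgeR and red bars are medians. Fabp5 is the only filled point among the members and lies at -4.15, below the lowest gene of fatty acid and cholesterol synthesis at -3.88.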

How the data were processed

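RNA of 6 mouse liver libraries, 3 fasted and 3 fed, was analysed from the table the authors deposited. Per the file headers it gives an FPKM and a count per gene and library. CASAVA 1.8, TopHat2 and the human build hg19 appear in the submitters' processing notes, while identifiers and loci are of mouse; counting program and settings: not given in the sources used here. The deposited counts are estimated counts: 88.8% to 91.1% of a library's positive values were multiples (tolerance 0.02) of one step per library, from 0.840 to 1.18. They were divided by that step, rounded and summed by symbol.

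The comparison of fasted with fed libraries used edgeR 4.0.16 (quasi-likelihood test, R 4.3.3; TMM, filterByExpr at 10 counts, two-sided p, Benjamini-Hochberg adjustment over 11633 genes, threshold 0.05). The SE is the log2 fold change divided by the square root of F. DESeq2 1.42.0, limma 3.58.1 on log2(FPKM + 1) or log2(FPKM + 0.1), other scalings and filters, and fits without each library were alternatives. The tests were checked on simulated counts.

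The members and lists were chosen with earlier results of these data known. All members are named; in each list up to 3 called genes with the lowest adjusted p, or the 2 most abundant where none was called; and 3 genes of the most alike pattern per member. Apoa4, Anpep, Fabp12, Fabp3, Acbd5, Ppard, Ppara, Cidec, Pparg, Adrb3, Cfd, Retn and Alb were named after their values were seen. A gene listed at 0 is taken as below 3 counts per library, which covers counting error only. That bound does not hold where an estimate failed, as may be so for Alb. In the stellate cell, cholangiocyte and lymphocyte marker lists edgeR called no gene (4, 0 and 0 at an unadjusted p under 0.05; 2, 0 and 0 by DESeq2). Some genes that the rule selects, and 2 promoter windows, are not reported here. A line of the table was emptied for this work and is not analysed here.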

Additional observations from a re-analysis of the deposited data

How the results depend on the processing

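Each fold change of Fabp5, Dbi, Fabp2, Fabp4 and Fabp7 kept its direction in the 16 alternatives. Fabp1 changed sign without fed library 1 (log2 fold change 0.52). Without 1 library each, the log2 fold change ranged from -4.77 to -3.70 for Fabp5, -1.22 to -0.91 for Dbi, 1.22 to 2.46 for Fabp2, -1.28 to 0.52 for Fabp1, -1.19 to -0.27 for Fabp4 and 0.04 to 0.40 for Fabp7. Fabp5 did not pass without fasted library 1, fasted library 2 or fed library 2 (-4.77, -4.18 and -4.00) or with limma on FPKM without a filter (-4.38, adjusted p = 0.0641), while Dbi (-1.02) and Fabp2 (1.64) passed with DESeq2, Dbi without fed library 3 (-1.17) and Fabp2 without fed library 1 (2.46). The members called numbered 3 with DESeq2, 0 with limma on FPKM without a filter and 0 to 2 without 1 library. Of all tested genes, 6.75%, 0.255% and 0.0252% to 6.35% were called in these settings.

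Over all genes, 293 calls became 1054 with DESeq2, 181 and 157 with limma on log2(FPKM + 1) and log2(FPKM + 0.1), 40 with limma without a filter, and 3 to 753 without 1 library (33, 3 and 30 without fasted libraries 1, 2 and 3; 498, 13 and 753 without fed libraries 1, 2 and 3). The share of higher calls was 56.0% in the main test, 46.5% with upper-quartile factors, 44.2% and 43.3% with limma on log2(FPKM + 1) and log2(FPKM + 0.1), and 40% with limma without a filter.

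Whether the shared replicate numbers pair the libraries cannot be told from these values, since deviations from a group mean sum to 0 within each group. Same-numbered libraries deviated from their group means with correlations of -0.07, 0.18 and -0.13. Not every library correlated best with its own number, though fasted library 2 and fed library 2 did. With the number as a replicate block edgeR called 29 genes and 0 members (Fabp5 log2 fold change -4.44, adjusted p = 0.0715).

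Of other named genes, Akr1c6 and mt-Co2 turned to 0.034 and 0.22 with limma on log2(FPKM + 1), with or without a filter, to 0.036 and 0.22 on log2(FPKM + 0.1), to 0.059 and 0.25 with the replicate block, and to 0.51 and 0.93 without fed library 1. Alas2 turned to 0.091 without fed library 1, Pcid2 to -0.043 without fasted library 1, and Scp2 to -0.017 and -0.16 without fed libraries 2 and 3. The cause was not tested. On CPM per kilobase of transcript the share of Fabp2 in fed livers was 0.614%, against 0.511% on FPKM, and the other shares moved by less than 1 SD. The order of the scarcer members also changed with the unit. By CPM per kilobase Fabp5 lay above Fabp7 and Fabp4 in fasted library 1, where by FPKM it lay below Fabp4.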
